A study of Saccharomyces cerevisiae with 4 samples.

Results

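The hexose transporter (HXT) genes of budding yeast encode the sugar carriers of the plasma membrane, and 9 of them, HXT1 to HXT7, HXT10 and HXT14, were followed nucleosome by nucleosome among the 6418 annotated genes used here. They were chosen by name, and every listed nucleosome was taken whose midpoint lay in the open reading frame (ORF) or in the 1000 bp before it. These windows held 110 of 60557 listed nucleosomes in wild type (WT) and 93 of 57674 in the mutant. The set was put together with the ratios between mutant and wild type already known, and HXT3 gave it its name, so all ratios of these genes are descriptions and carry no test.

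The signal is H4K16ac, acetylation of lysine 16 on histone H4, immunoprecipitated from formaldehyde-fixed, sonicated chromatin of cells growing exponentially in YPD, a rich glucose medium. One genotype is labelled WT and the other nhp6ab, after NHP6A and NHP6B, which encode closely related HMGB-type DNA-bending proteins. The labels give neither the structure of the alleles nor the strain background. There were 4 libraries, 2 per genotype, but the values came as 1 column of read counts per genotype, so the spread between replicates is not known and no comparison between genotypes could be tested. Intervals given with ratios are 95% counting intervals only.

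Baker's yeast takes up glucose by facilitated diffusion through a family of carriers that differ in affinity, and it switches between them as glucose changes. Hxt1 and Hxt3 are low-affinity carriers used in plentiful glucose, Hxt2 and Hxt4 serve when glucose is scarcer, and Hxt6 and Hxt7 are high-affinity carriers of nearly identical sequence. Hxt5 is linked to slow growth, while HXT10 and HXT14 are little expressed in standard media. In glucose, signals from the sensors Snf3 and Rgt2 relieve the repressor Rgt1 from HXT promoters.

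The WT table held 26526939 counts with a median of 442 per nucleosome, and that of nhp6ab 20293261 with a median of 354, so that counting error at the median was 4.76% and 5.31%. Over the NHP6A ORF 592 counts were listed in WT and 260 in nhp6ab, and over the NHP6B ORF 882 and 564. Both were lower in the nhp6ab table, but neither ORF lacked reads, so this check of the labels is weak and directions below are those of the tables as labelled. A level is a nucleosome's count divided by its table's median. A log2 ratio sets nhp6ab over WT, each divided by its table's total. It rests on summed counts unless the mean per listed nucleosome is named, because a sum also moves with the number of nucleosomes listed. No input library was used here, so acetylation, nucleosome recovery, DNA copy number and mapping cannot be told apart. A position where no nucleosome is listed is not a count of 0.

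HXT3 (YDR345C, chromosome IV, 1162957 to 1164660, minus strand) had 13 listed nucleosomes with 2498 counts in WT and 6 with 651 counts in nhp6ab. The difference was uneven along the gene. Immediately upstream of the ORF the counts in nhp6ab were close to none, at the start of the ORF they were slightly above WT after scaling, and beyond that no nucleosome was listed in nhp6ab.

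Within 500 bp upstream of HXT3, WT had 116, 122 and 102 counts at midpoints −499, −351 and −188 bp from the ORF start, levels of 0.23 to 0.28. In nhp6ab the counterparts at −468, −351 and −220 bp had 6, 17 and 30 counts, levels of 0.02 to 0.08. These sites were already among the lowest in WT, at or below percentile 0.90 of its nucleosomes, and 11 nucleosomes of the whole nhp6ab table had 6 counts or fewer. The 3 matched pairs had log2 ratios of −3.89 (−5.36 to −2.72), −2.46 (−3.28 to −1.72) and −1.38 (−2.02 to −0.78), of which the second is matched within 25 bp and the others are not. Farther upstream the difference was small, with 439 counts at −899 bp in WT and 291 at −923 bp in nhp6ab, a ratio of −0.21 (−0.43 to 0.01).

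At the beginning of the HXT3 ORF the order was the other way round after scaling. WT had 132 counts at 39 bp and 170 at 196 bp, and nhp6ab had 142 at 85 bp and 165 at 201 bp. After scaling these pairs stood at 0.49 (0.14 to 0.84) and 0.34 (0.03 to 0.66). They are the 2 nucleosomes listed within the HXT3 ORF in nhp6ab. The first pair sets a 120 bp interval in WT against a 148 bp one in nhp6ab, with midpoints 46 bp apart. Width was not adjusted for.

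The remaining 7 WT nucleosomes in the HXT3 ORF, at midpoints from 578 to 1693 bp, had 80 to 269 counts and 1417 in all. In nhp6ab no nucleosome was listed there. The summed ORF counts of 1719 and 307 gave a ratio of −2.10 (−2.28 to −1.92), while the mean per listed nucleosome gave 0.07. The low ORF sum thus went with fewer listed nucleosomes, while the scaled mean count per listed nucleosome was near that in WT. Per listed bp and relative to the whole table, the ORF level was 0.50 in WT and 0.43 in nhp6ab. The mean also sets 2 nucleosomes at the ORF start in nhp6ab against 9 along the ORF in WT.

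HXT6 (YDR343C, chromosome IV, 1159608 to 1161320, minus strand), which lies next downstream of HXT3, had no nucleosome listed anywhere in its window in nhp6ab. In WT its ORF was also without listed nucleosomes, but 5 were listed upstream, at −994, −841, −724, −612 and −247 bp. They had 381, 426, 321, 340 and 276 counts, levels of 0.62 to 0.96. These lie at percentiles 10.8 to 45.2 of WT nucleosomes, so all 5 were below the WT median. Because the nhp6ab table lists nothing to set against them, HXT6 has no ratio. Of 3884 protein-coding genes with at least 5 WT nucleosomes in the 1000 bp upstream, 2 had none in nhp6ab, and these were HXT6 and the overlapping YDR344C, the ORF between HXT6 and HXT3.

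The unlisted stretches of HXT3 and HXT6 were 1 continuous gap in nhp6ab. No nucleosome was listed there from 1159307 to 1164383 on chromosome IV, 5076 bp that reach from beyond the 3′ end of HXT6 into the start of the HXT3 ORF. WT was unlisted over the HXT6 ORF and its edges, from 1159273 to 1161507 or 2234 bp, and then listed 14 nucleosomes in a row with 4044 counts, each with 80 to 509. Across the genome, 132 runs of at least 2 adjacent WT nucleosomes had no overlapping nucleosome in nhp6ab. Of these, 16 had at least 3 members and 2 at least 4, and the run of 14 at HXT6 and HXT3 was the longest. The next longest had 4 and lay at SAS2 and ECM16 on chromosome XIII.

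**Figure D1:**
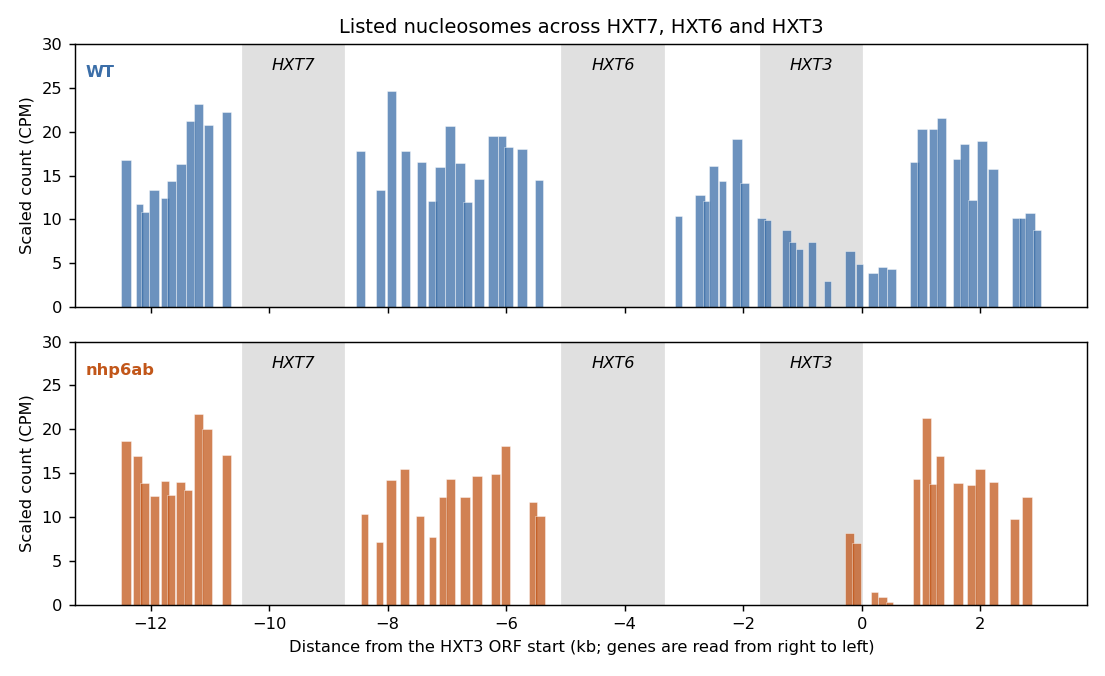
Read counts scaled to the table total (CPM) for every listed nucleosome around HXT7, HXT6 and HXT3, with WT above and nhp6ab below. Bars are as wide as the listed interval, and the x axis is the distance in kb from the HXT3 ORF start, with ORFs in grey. The HXT7 and HXT6 ORFs are unlisted in both tables, and nhp6ab lists nothing from left of HXT6 until the 2 bars at the start of HXT3, where WT lists 14 nucleosomes.

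HXT7 (YDR342C, chromosome IV, 1154216 to 1155928, minus strand), the near-identical partner of HXT6, also had no nucleosome listed over its ORF in either table. Nothing was listed between 1154023 and 1156117 in WT, nor between 1154019 and 1156215 in nhp6ab. Of 1984 ORFs at least as long as the shortest HXT member, 84 were unlisted in WT (4.23%) and 79 in nhp6ab (3.98%), among them many Ty and Y′ ORFs of repeated sequence and HXT15 and HXT16. How reads that map to several places were treated is not given in the sources used here, so nothing can be read on the mark inside HXT6 and HXT7. The other members share sequence to a lesser degree, and no sequence was used here to measure it.

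Upstream of HXT7 there were 3 nucleosomes in each table. WT had 653, 354 and 472 counts at −797, −610 and −269 bp, and nhp6ab had 288, 146 and 210 at −791, −591 and −347 bp. All 3 were lower in nhp6ab, and the sums of 1479 and 644 gave a ratio of −0.81 (−0.95 to −0.68), the same by the mean. Over the 3679 bp between the HXT7 and HXT6 ORFs, 16 and 14 nucleosomes with 7207 and 3523 counts gave −0.65 (−0.70 to −0.59), or −0.45 by the mean. The 10000 bp flanks of the HXT7 to HXT3 stretch were nearer to 0, at −0.13 (−0.16 to −0.11) beyond HXT7 and −0.19 (−0.21 to −0.16) beyond the HXT3 window, or 0.02 and −0.05 by the mean.

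On chromosome VIII, HXT1, HXT4 and HXT5 lie side by side, and HXT1 showed opposite directions on the 2 sides of its ORF start. HXT1 (YHR094C, 290913 to 292625, minus strand) had 6 upstream nucleosomes in WT with 183 to 340 counts and 4 in nhp6ab with 64 to 138. No upstream count in nhp6ab reached the lowest in WT before or after scaling. The upstream sums of 1484 and 417 gave −1.44 (−1.61 to −1.29), or −0.86 by the mean. The matched pairs with WT midpoints at −804, −474 and −383 bp stood at −1.18, −0.46 and −0.86.

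Inside the HXT1 ORF, 12 nucleosomes with 4102 counts were listed in WT and 10 with 3592 in nhp6ab, a ratio of 0.19 (0.13 to 0.26) by the sum and 0.46 by the mean. All 10 matched pairs were above 0, from 0.08 to 1.05. The highest lay near the start, with 235 counts at 90 bp in WT and 371 at 118 bp in nhp6ab, a ratio of 1.05 (0.81 to 1.29), which is not 2-fold when scaled to the median count and is not matched within 25 bp. The level in the ORF, a median of 0.73 in WT, was 1.03 in nhp6ab. Over the whole HXT1 window the 2 directions nearly cancelled, at −0.09 (−0.15 to −0.03).

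HXT4 (YHR092C, 287081 to 288811, minus strand) had 2 upstream nucleosomes in WT, with 440 counts at −810 bp and 153 at −423 bp. In nhp6ab 1 was listed, with 191 counts at −813 bp. The matched pair at −810 bp stood at −0.82 (−1.07 to −0.57). The upstream sum gave −1.25 (−1.49 to −1.01) and the mean −0.25, so part of the sum reflects the WT nucleosome with no counterpart. All 3 also lie within the annotated AHT1 gene, which overlaps the HXT4 upstream region. The HXT4 ORF, with 11 nucleosomes in each table and 5514 and 4129 counts, was at −0.03 (−0.09 to 0.03), an interval that includes 0.

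HXT5 (YHR096C, 294669 to 296447, minus strand) had low upstream counts in WT, 179, 148, 180 and 154 counts at −686, −555, −378 and −243 bp. In nhp6ab the 4 nucleosomes between −687 and −354 bp had 96, 72, 60 and 54 counts. The 3 matched pairs stood at −0.51, −0.65 and −1.35, all below 0. The upstream sum was nevertheless above 0, at 0.44 (0.28 to 0.59), because nhp6ab listed nucleosomes at −781 and −969 bp with 163 and 239 counts. For the nucleosome at −969 bp the nearest in WT lay outside the window, at −1093 bp with 580 counts, and for that at −781 bp it was the one at −686 bp. The nucleosome at −969 bp lies within the ORF of PAL2, and the WT nucleosome at −243 bp had no counterpart within 50 bp. By the mean the upstream ratio was −0.15. Without intervals in another ORF the HXT5 window ratio was −0.16 (−0.22 to −0.10), against −0.08 as reported. In the HXT5 ORF, 12 nucleosomes in each table with 5113 and 3501 counts gave −0.16 (−0.22 to −0.10).

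HXT14 is the other gene whose upstream sum depended on the window's edge. A nucleosome at −977 bp with 357 counts in nhp6ab fell inside, and its WT counterpart at −1002 bp with 464 counts fell just outside.

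**Figure D2:**
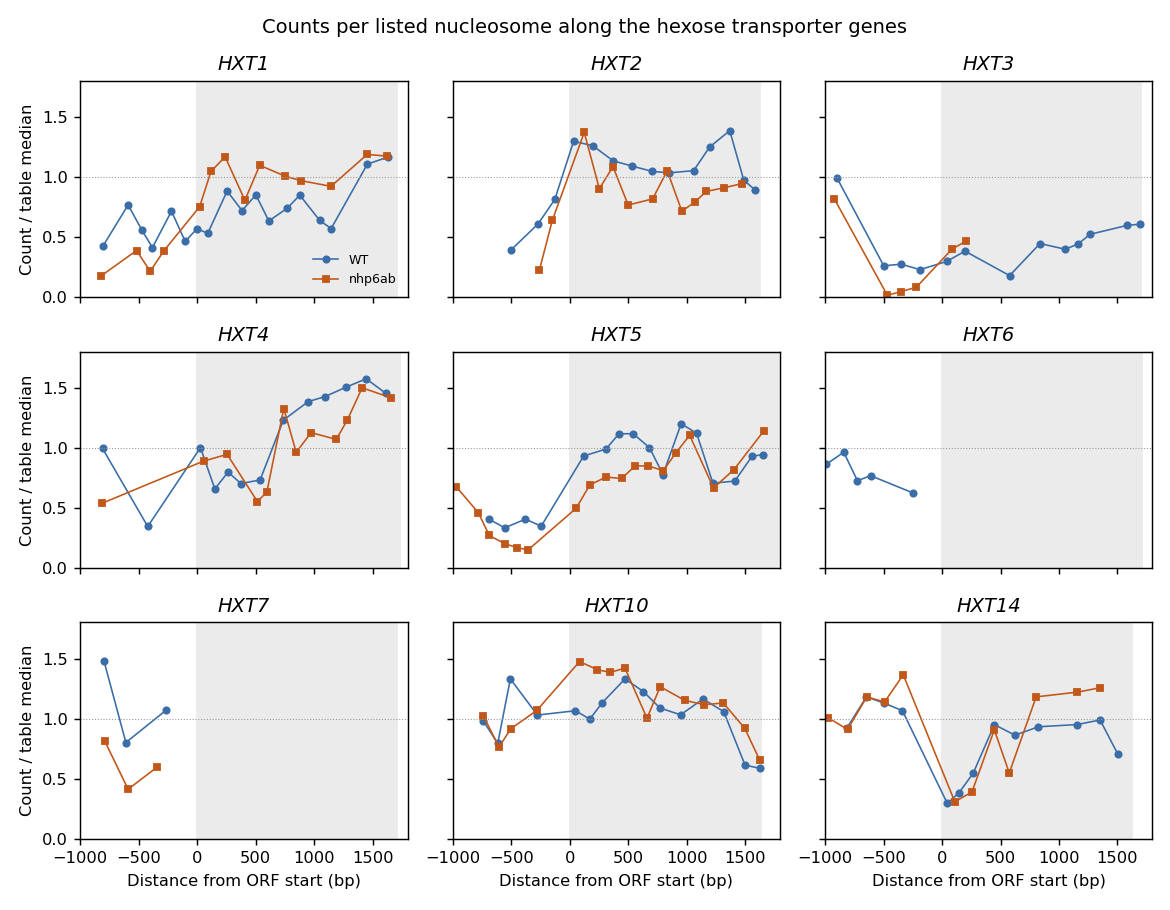
Level of each listed nucleosome, its count divided by the table median, against the distance of its midpoint from the ORF start in bp for the 9 genes. Circles are WT, squares are nhp6ab, the ORF is shaded, and lines only join neighbouring listed nucleosomes. Upstream of HXT1, HXT2, HXT3 and HXT7 the nhp6ab points lie below those of WT nearby, and inside the HXT1 ORF they mostly lie above.

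HXT2 (YMR011W, chromosome XIII, 288079 to 289704, plus strand) had 173, 270 and 360 counts at −505, −270 and −127 bp in WT. In nhp6ab it had 81 and 227 counts at −258 and −148 bp, and none was listed near −505 bp. The matched pairs stood at −1.35 (−1.73 to −0.99) and −0.28 (−0.52 to −0.04), with the lower value farther from the ORF. The upstream sum gave −0.996 (−1.19 to −0.80) and the mean −0.41. The ORF, with 11 nucleosomes in each table and 5495 and 3630 counts, was at −0.21 (−0.27 to −0.15). Of its 8 matched pairs, 5 were below 0, and the range was −0.54 to 0.09.

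The upstream sum of HXT10 was not lower by more than the counting error. That of HXT14, which includes the nucleosome at −977 bp in nhp6ab, was above 0 at 0.45 (0.36 to 0.54), or 0.13 by the mean. HXT10 (YFL011W, chromosome VI, 112345 to 113985, plus strand) had 433, 351, 588 and 455 counts upstream in WT and 363, 270, 324 and 378 at nearly the same midpoints in nhp6ab. The sums of 1827 and 1335 gave −0.07 (−0.17 to 0.04). Of its 4 upstream pairs the one at −507 bp was lower, at −0.47 (−0.67 to −0.28), and the others lay between 0.01 and 0.13. The pair at −507 bp sets 160 bp in WT against 120 bp in nhp6ab, so per bp it lies nearer to 0. Its ORF, with 11 nucleosomes in each table and 4988 and 4576 counts, was at 0.26 (0.20 to 0.32).

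HXT14 (YNL318C, chromosome XIV, 38707 to 40329, minus strand) had all its upstream nucleosomes within the ORF of PFS2, a gene for messenger RNA 3′ end processing. WT had 406 to 522 counts there over 4 nucleosomes and nhp6ab 322 to 483 over 5, and the 4 pairs matched within the window stood between 0.05 and 0.42. The HXT14 ORF had 9 and 7 nucleosomes with 2923 and 2057 counts, a ratio of −0.12 (−0.20 to −0.04) by the sum and 0.24 by the mean.

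**Figure D3:**
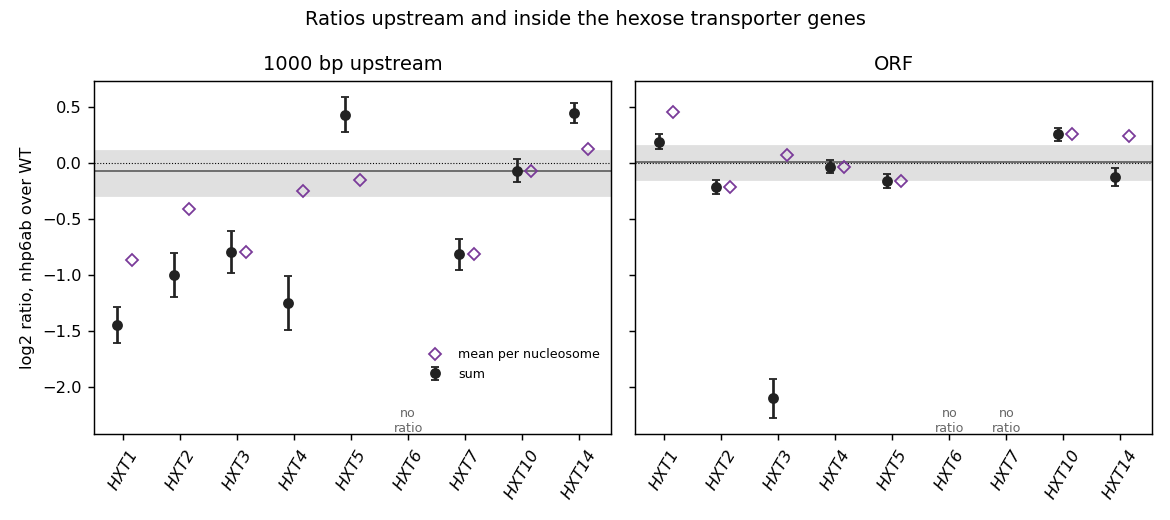
Log2 ratio of nhp6ab over WT in the 1000 bp upstream (left) and in the ORF (right) of each gene. Filled circles are summed counts with 95% counting intervals, and open diamonds the mean per listed nucleosome. The line and grey band are the median and interquartile range of all measured genes by the sum, not by the mean. Upstream, HXT1, HXT2, HXT3, HXT4 and HXT7 lie between −1.44 and −0.79 by the sum, below the band, and in the ORF the HXT3 sum is at −2.10 with its mean at 0.07.

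Over whole windows, 8 of the 9 genes could be measured in both tables, HXT6 being the exception. By the sum HXT3 was lowest at −1.55 (−1.68 to −1.43), rank 19 from the bottom of 6226 measured genes and rank 12 of 5851 protein-coding ones. It was followed by HXT7 at −0.81, HXT2 at −0.29, HXT4 at −0.11, HXT1 at −0.09 and HXT5 at −0.08, while HXT14 was at 0.13 and HXT10 at 0.18. HXT4, HXT1 and HXT5 overlapped in their counting intervals. The median of the 8 was −0.10, against −0.03 for all measured genes, whose interquartile range was −0.15 to 0.09. By the mean per listed nucleosome HXT7 was lowest at −0.81, HXT3 stood at −0.44, HXT5 at −0.25, HXT2 at −0.18, HXT4 at 0.0025, HXT10 at 0.18, HXT14 at 0.25 and HXT1 at 0.27.

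A gene was called when its log2 ratio was at least 1 away from 0 with an interval that excluded 0. HXT3 was the 1 member called lower over the window, where 0.691% of all measured genes were, and none was called higher (0.0964% of all). Over the ORF it was again HXT3 of 7 measured members, against 1.17% of all genes. Over the 1000 bp upstream, HXT1 and HXT4 were called lower of 8 measured members, against 2.81% of all genes, and HXT2 lay just short of the limit at −0.996. Calls by the mean per listed nucleosome used the limit of 1 alone, without an interval. By the mean no member was called lower in any of these regions, against 0.434%, 0.732% and 0.91% of all genes in the window, ORF and upstream. None was called higher over the ORF or upstream (0.544% and 0.374% of all genes by the sum), nor by the mean in the window, ORF and upstream (0.0803%, 0.0851% and 0.146% of all). Nothing is read from these counts, since earlier ratios chose the members.

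The median of the members was lower upstream than over the ORF, but not every gene followed, and HXT7 entered the upstream median only. By the sum HXT1, HXT2, HXT4 and HXT10 were lower upstream than in the ORF. By the sum HXT3, HXT5 and HXT14 were higher upstream than in the ORF. By the mean HXT3 (−0.79 upstream and 0.07 in the ORF) and HXT14 (0.13 and 0.24) were lower upstream. HXT5 was nearly equal by the mean, at −0.149 and −0.160, and HXT1, HXT2, HXT4 and HXT10 kept their order. Upstream of 8 members the median sum gave −0.80 and the median mean −0.33, against −0.07 and −0.01 for all 6157 genes measured there. Over the ORFs of 7 members the median sum gave −0.12 and the median mean 0.07, against 0.01 and 0.04 for 5878 genes. In the 500 bp before the ORF, HXT3 stood at −2.30 (percentile 0.70 of all genes), HXT1 at −1.76, HXT5 at −1.16, HXT7 at −0.78 and HXT2 at −0.65, and HXT10 and HXT14 at 0.12 and 0.26. By the mean HXT1 was at −0.76, with 2 listed nucleosomes against 4 in WT, and the others were as by the sum. The HXT1 values here also depend on the edge at 500 bp. Its WT nucleosome at −474 bp with 248 counts lay inside, and the nhp6ab counterpart at −519 bp with 138 counts lay outside. HXT4 had no ratio there, with 1 nucleosome in WT and none listed in nhp6ab. In the first 500 bp of the ORF, HXT1 was at 0.55, HXT3 at 0.41 and HXT10 at 0.40, and HXT4 at −0.72 by the sum, with 2 listed nucleosomes against 4 in WT, but 0.28 by the mean. HXT14 was at −0.37, HXT5 at −0.11 and HXT2 at −0.07, or 0.04, −0.52 and −0.07 by the mean, so the start of the ORF had no common direction.

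The ratio of a matched pair does not sum over listed nucleosomes, but which pairs exist depends on what is listed in both genotypes. Of 77 matched pairs in the windows, 6 were at least 2-fold lower, against 0.758% of all 51169 pairs in the genome, and 1 was at least 2-fold higher, against 0.321%. With matching within 25 bp instead of 50 bp the counts were 4 and 0. All 6 lay upstream, 3 at HXT3 and 1 each at HXT1, HXT2 and HXT5, and the higher pair lay in the HXT1 ORF. Pair ratios were not adjusted for interval width. The lower pairs at HXT2, at HXT5 and at −499 and −188 bp of HXT3 set 160 bp in WT against 120 bp in nhp6ab. The higher pair set 120 bp against 152 bp. Divided by interval width, the lower pairs at HXT2, at HXT5 and at −188 bp of HXT3 fall short of 2-fold, as does the higher pair. The lower pairs at HXT1 and at −499 and −351 bp of HXT3 stay beyond 2-fold. Where upstream sequence belonged to no other ORF, 15 of 18 member pairs were below 0 with a median of −0.72. The 7218 such pairs in the genome had a median of −0.06 and an interquartile range of −0.30 to 0.14, and 3.84% were at least 2-fold lower. This leaves out the upstream pairs of HXT14 and HXT4. Over all 23 upstream member pairs, 16 were below 0 with a median of −0.51. For upstream pairs that include other ORFs no genome figure was computed, nor was the genome share below 0 for either set. In ORFs the median of 54 member pairs was 0.11, against 0.06 for 42288. Counterparts within 50 bp were missing for 33 of the 110 WT nucleosomes, or 30%, against 15.5% of all WT nucleosomes. Of these 33, 12 were the 7 in HXT3 and the 5 at HXT6. For nhp6ab 15 of 93 lacked a counterpart, or 16.1%, against 11.3% of all.

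**Figure D4:**
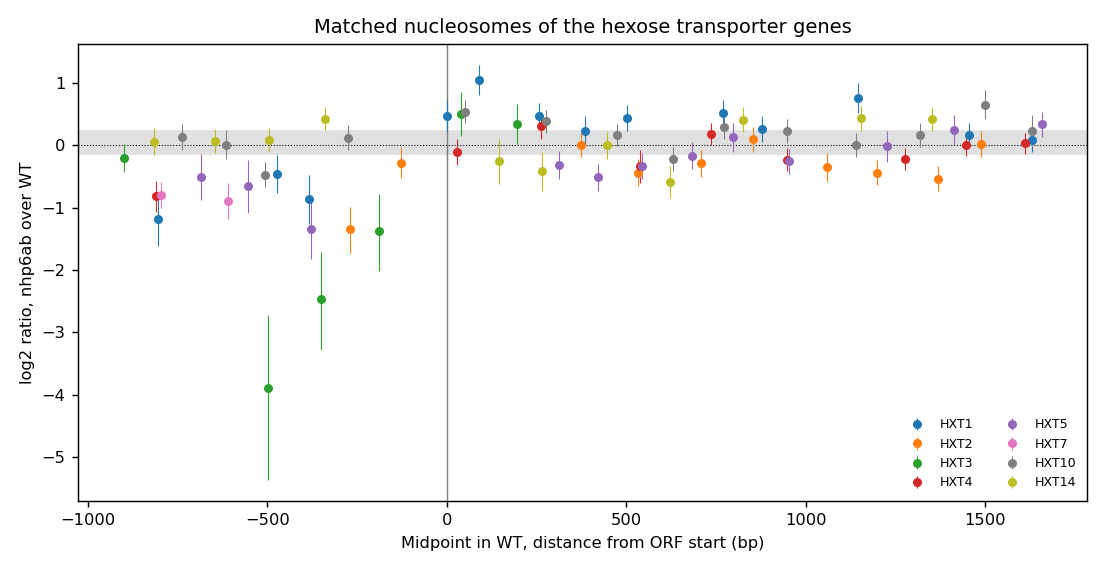
Log2 ratio of nhp6ab over WT for the 77 matched nucleosomes of 8 genes (HXT6 has none), against the WT midpoint's distance from the ORF start in bp. Bars are 95% counting intervals and the grey band is the interquartile range of all matched nucleosomes. To the left of the ORF start 16 of 23 points lie below 0, down to −3.89 at HXT3, and to the right they lie between −0.59 and 1.05.

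Levels in WT also differed among the members. Set per length and relative to the whole table, the HXT3 window had a level of 0.47 in WT (percentile 1.53 of measured genes) and 0.34 in nhp6ab. The HXT1 window was at 0.78 and 0.87, HXT14 at 0.86 and 0.93, HXT5 at 0.87 and 0.72, and HXT2 at 0.99 and 0.92. HXT10, HXT4 and HXT7 were at 1.04, 1.06 and 1.08 in WT, and of these HXT7 was below 1 in nhp6ab, at 0.67. The upstream levels of HXT5 (0.39), HXT3 (0.43), HXT2 (0.57), HXT1 (0.63) and HXT4 (0.68) in WT were at percentile 11.4 or lower of all genes, whereas those of HXT7, HXT10 and HXT14 were between 1.02 and 1.08.

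Transporters outside the set, the glucose sensors, their regulators and the hexose kinases formed a further list of 29 genes, of which 27 were measured. Over the window none was called in either direction, and the median ratio was 0.01, with 13 below 0. Over the ORF, HXT17 was called lower at −1.30 and HXT13 and HXT12 higher at 1.70 and 1.01, against 1.17% and 0.544% of all genes, each with 1 to 3 listed nucleosomes per table and by the mean at −0.30, 0.11 and 0.0086. Over the upstream region CYC8, a corepressor gene, was called lower at −1.10 (−1.27 to −0.93) by sum and mean alike, against 2.81% and 0.91% of all genes. Over the window the lowest were HXT17 at −0.52, MTH1, a corepressor of Rgt1, at −0.41, and MIG1, a repressor in glucose, at −0.41. By the mean these were 0.22, −0.06 and −0.24. The highest were the pseudogene HXT12 at 0.80, HXT9 at 0.64 and the galactose transporter gene GAL2 at 0.51, or 0.21, 0.06 and 0.42 by the mean. GAL2 lies on chromosome XII, where the median window ratio of all measured genes was 0.37, and HXT9, HXT12 and HXT17 near chromosome ends among similar copies, with 2 nucleosomes each in WT for HXT9 and HXT12.

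The genes most like HXT3 in their pair of upstream and ORF ratios, over 2 tables and among 4651 genes with at least 3 listed nucleosomes in each region, were YCR006C, OSW1 and UTR5. HXT3 itself has 2 nucleosomes in the nhp6ab ORF. YCR006C on chromosome III had −0.69 upstream and −1.99 in the ORF, a distance of 0.15 from HXT3 at −0.79 and −2.10. OSW1 had −0.56 and −1.33, and UTR5 0.08 and −2.10, at distances of 0.80 and 0.88. By the mean their ORF ratios were −1.57, −0.59 and −1.68, where HXT3 had 0.07, so the likeness holds for the sums. Of 5813 genes measured in both regions, 284 were at or below HXT3 upstream and 7 in the ORF, HXT3 included in both.

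**Figure D5:**
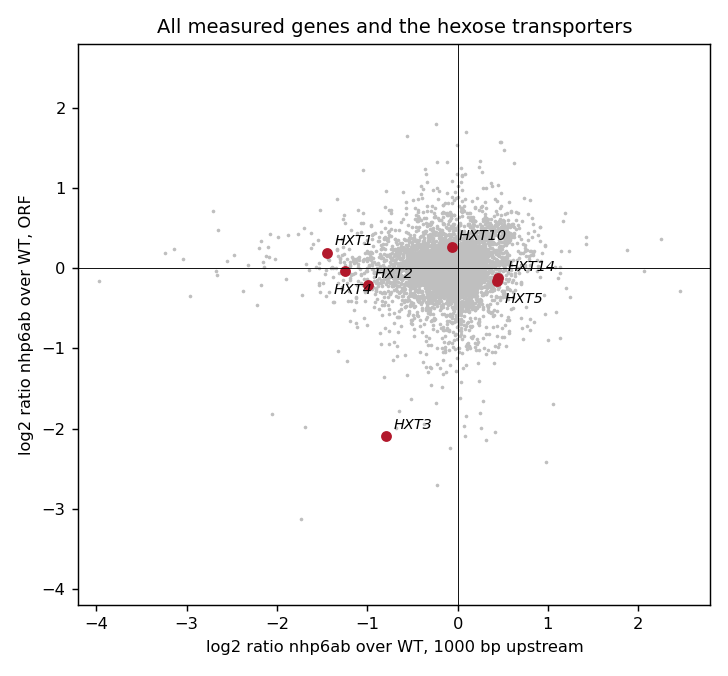
Log2 ratio of nhp6ab over WT in the ORF (y axis) against that in the 1000 bp upstream (x axis) for the 5813 genes measured in both, as grey points, with 7 hexose transporter genes in red. HXT1, HXT2 and HXT4 lie to the left with ORF ratios near 0, and HXT3 lies below, at −0.79 and −2.10.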

How the data were processed

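The authors deposited 1 table per genotype with a chromosome, start, end and read count per nucleosome. Per the file headers the values are read counts, and being whole numbers with unequal totals they were taken as not normalized. FastQC and Bowtie with build R64 are named, without versions, in the submitters' processing notes. How nucleosomes were called, reads filtered or placed, and replicates merged were not given in the sources used here. Intervals were 120 to 160 bp wide, and neighbours overlapped for 42.2% of them in WT and 40.1% in nhp6ab, so a read may enter several counts.

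Gene positions came from an R64 RefSeq gene table, with strand read from the systematic name, and all 9 members and 29 further names matched. Counts were summed by interval midpoint and scaled to table totals. Ratios carry exact conditional binomial 95% intervals. Without molecular identifiers PCR reads are not independent, so these cover counting error only. A measured gene had at least 100 counts over both tables and a count in each. Nucleosomes were matched by mutual nearest midpoint within 50 bp, with at least 10 counts per pair. Pair ratios and means per listed nucleosome were not adjusted for interval width. Members and lists were chosen with earlier results of these data known. Named were all members, the 3 highest and 3 lowest of the further list, and the 3 genes nearest to HXT3 by Euclidean distance. SAS2, ECM16, YDR344C, AHT1, PFS2, PAL2, HXT15, HXT16, NHP6A and NHP6B fall outside this rule. Those not fixed by position were chosen after their values were seen. Interval coverage and matching were tested on simulated data. Python 3.11.15, pandas 2.3.3 and SciPy 1.17.1 were used.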

Additional observations from a re-analysis of the deposited data

How the results depend on the processing

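No paired analysis was possible because each genotype has 1 column for both replicates, and for that reason leaving out a replicate was not run either. The HXT3 window ratio of −1.55 stayed below 0 in the 10 alternatives run. It was −0.44 by the mean per listed nucleosome, −2.10 over the ORF, −0.79 over the upstream region, −2.13 with 500 bp upstream and −1.83 with assignment by any overlap. The count of members called lower, 1 as reported, was 0 by the mean and 2 over the upstream region. Pairs called higher, 1 as reported, were 0 with matching within 25 bp and with scaling to the median count. Genes called lower, 43 as reported, were 27 by the mean, 69 over ORFs, 173 upstream, 66 with 500 bp and 91 without intervals in other ORFs. Genes called higher, 6 as reported, were 32, 23, 20 and 19 in the last 4 of these. The sign turned for HXT1 over the ORF (0.19) and by the mean (0.27), for HXT4 by the mean (0.0025), for HXT5 upstream (0.44) and for HXT10 upstream (−0.0662). It turned for HXT14 over the ORF (−0.12), with 500 bp (−0.0171), by overlap (−0.00109) and without intervals in PFS2 (−0.12). The cause of these changes was not tested, beyond the different sequence each window holds. The depth limits the sites with 6 to 30 counts upstream of HXT3, where the counting intervals are widest.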
